A study of Mus musculus with 4 samples.

Results

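The genes described here encode 9 scaffold proteins of the postsynaptic density, which are Dlg2, Dlg3, Dlg4, Shank1, Shank2, Shank3, Homer1, Homer2 and Homer3. They were taken by gene symbol from a table of 17778 genes, and all 9 were found in the table. The rule used no values, but it was set with earlier results of these data known. Their mRNAs were sequenced in the medial prefrontal cortex (mPFC), an association area of the frontal neocortex, from male juvenile mice of the strain labelled C57BL/6 (C57BL/6J in the methods). The CUMS group (2 libraries) consisted of mice that had undergone chronic unpredictable mild stress (CUMS), a schedule of changing mild stressors such as social isolation, restraint and disturbed light cycles. The schedule was applied for 3 weeks, in an experiment that started at postnatal day 21, and the mice used had shown depression-like behavior in all of the sucrose preference, Y-maze and forced swimming tests. The control group (2 libraries) came from mice of the same strain and age that lived without these stresses, and in both groups the cortex was taken the day after the tests. Stressed mice without depression-like behavior were not used here, so that stress and depression-like state cannot be told apart. The methods state that RNA was isolated from each mouse, but whether a library held the RNA of a single mouse was not stated.

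The postsynaptic density is a protein mesh beneath the membrane of excitatory synapses that holds glutamate receptors in place opposite the site of transmitter release. It is built in layers. DLG proteins (the PSD-95 family) lie closest to the membrane and bind NMDA receptors and the auxiliary subunits of AMPA receptors through PDZ domains. DLGAP proteins link them to SHANK proteins deeper in the mesh, and SHANK proteins bind HOMER proteins, which in turn hold group I metabotropic glutamate receptors and calcium channels of the endoplasmic reticulum. In the cortex these scaffolds mark excitatory synapses, mostly on dendritic spines.

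The values were 1 mean RPKM (read number divided by gene length in kilobases and by library size) per gene and group. No value for a single library was in the table, so that the spread between mice is unknown, no test of a difference between the groups could be made, and every difference below is a description of these 4 libraries. The error that could be given is the counting error. It was computed from an estimated 7385524 fragments in each control library and 7440476 in each CUMS library, as an exact Clopper-Pearson 95% interval of the log2 ratio (CUMS mean over control mean). Removal of duplicate fragments from PCR is not described in the sources used here, and duplicates left in would make these intervals too narrow. The intervals cover counting error only. The estimated fragment numbers are well below the read numbers that the study gives, and the difference was not resolved. With 2 times the estimated depth the intervals would be narrower, and those of 4 members in place of 2 would lie to one side of 0. Behind the members stood between 257 estimated fragments (Homer3) and 16029 (Dlg4) over both control libraries, so that the counting error was smallest for Dlg4 and largest for Homer3.

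The 3 families differed widely in level. At the deposited gene lengths, the 3 Dlg members and all 3 Shank genes lay above all 3 Homer genes in both groups. Dlg4 was highest, at 325.1 RPKM in control and 329.9 in CUMS, and only 141 genes of the whole table had a higher control mean. The next in level was Shank1 (98.995 RPKM in control), followed by Dlg2 (62.0), Shank3 (53.6), Dlg3 (48.5), Shank2 (37.3), Homer1 (19.6), Homer2 (7.58) and Homer3 (7.12). The median control mean was 9.03 RPKM among the 14257 genes that reached 0.5 RPKM in either group, and all 9 members are among these genes. The order was the same in CUMS with 1 exception, since Homer2 was 1.06 times the level of Homer3 in control and 0.904 times in CUMS. Neighbours in this order could not be set against a spread over samples. Dlg4 was 45.7 times the level of Homer3 per length in control and 47.8 times in CUMS.

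**Figure D1:**
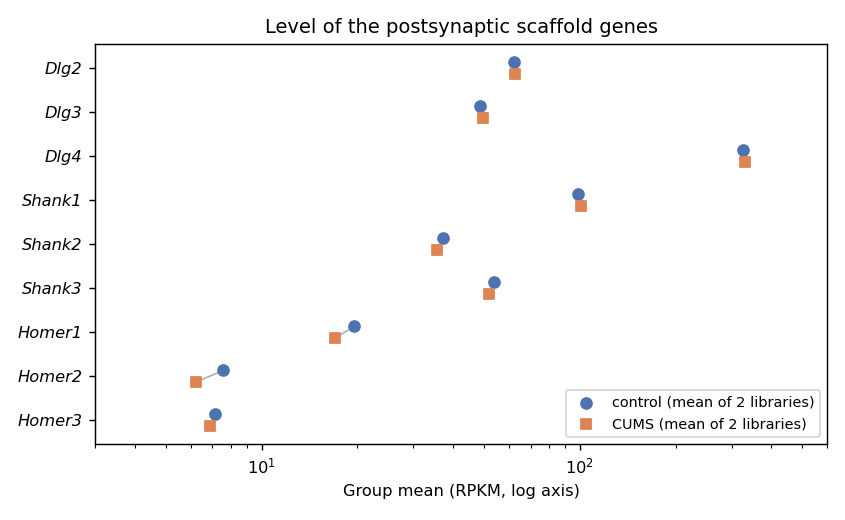
Mean level of the 9 scaffold genes in the mPFC (horizontal axis, RPKM, log axis) in control (circles) and CUMS (squares), each the authors' mean of 2 libraries with no error available. Circle and square lie nearly on top of each other for the Dlg and Shank genes, and the square lies to the left of the circle for Homer1 and Homer2.

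The main comparison asked whether the scaffold genes differed between depression-like and control mice. Summed over all 9 genes the level differed by 0.1%, at 659.7 RPKM in control and 660.1 in CUMS. Dlg4 gave 325.1 RPKM of the control sum and the 3 Homer genes gave 34.3, so the sum says little about the Homer genes. In 7 of the 9 genes the CUMS mean lay within 5% of the control mean. Homer1 and Homer2 were the exceptions and both were lower in CUMS. Homer2 was the single member past a fold of 1.2, in the lower direction, which 14.6% of the 14257 genes also passed. No member was higher by more than 1.2-fold (10.4% of genes). The study called genes by a 1.5-fold change together with a NOISeq probability, and the probability was not used here. By the 1.5-fold change alone no member was lower (4.42% of genes) and none was higher (2.78% of genes). The counting interval lay under 0 in 2 members, Homer1 and Homer2, and in 16.8% of genes, and it lay over 0 in no member and in 12.5% of genes. With 9 members, counts of 1 and 2 are near these shares and are no result about the members. The median log2 ratio of the members was -0.05 (5 lower and 4 higher), and that of all 14257 genes was -0.015. The median of the absolute log2 ratio was 0.05 in the members and 0.13 in all genes, and 0.10 in the 9397 genes that reached 5 RPKM in either group, which are closer to the members in level. The median control mean of the members was 48.5 RPKM, and genes of that level were not compared apart.

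**Figure D2:**
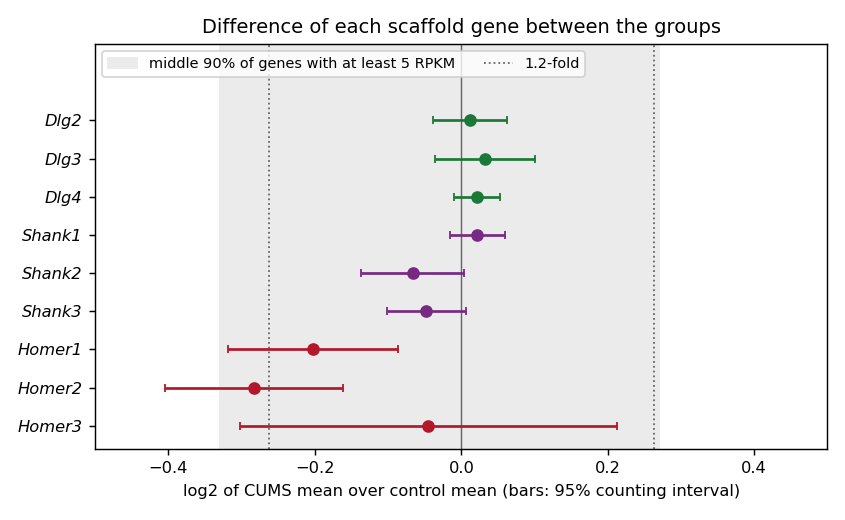
Log2 ratio (CUMS mean over control mean) for each scaffold gene (horizontal axis), with bars for the 95% counting interval. Colors mark the Dlg (green), Shank (purple) and Homer (red) families, dotted lines mark 1.2-fold, and the grey band from -0.33 to 0.27 holds the middle 90% of genes with at least 5 RPKM. All 9 points lie inside the band, and the bars of Homer1 and Homer2 alone lie to one side of 0.

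In the DLG family all 3 genes were higher in CUMS by small amounts, and none of the counting intervals lay off 0. Dlg4 (chromosome 11, 70017203 to 70045535, plus strand), which encodes PSD-95, the most abundant scaffold of the cortical postsynaptic density, went from 325.1 to 329.9 RPKM. Its log2 ratio was 0.02 (interval -0.01 to 0.05). Dlg2 (chromosome 7, 90476188 to 92449246, plus strand), which encodes PSD-93, was 62.0 RPKM in control and 62.5 in CUMS, a log2 ratio of 0.01 (-0.04 to 0.06). Dlg3 (chromosome X, 100767411 to 100818410, plus strand) encodes SAP102, the member that is prominent at young synapses. It was 48.5 RPKM in control and 49.6 in CUMS, a log2 ratio of 0.03 (-0.04 to 0.10). Of the summed level of the 3 Dlg members, without Dlg1, Dlg4 made up 74.6% in control and 74.6% in CUMS, Dlg2 14.2% and 14.1%, and Dlg3 11.1% and 11.2%. The mix of these 3 paralogs was thus the same in both groups to within 0.1 of a percentage point.

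In the SHANK family the sum was 189.9 RPKM in control and 188.0 in CUMS, and 2 genes were lower and 1 was higher. SHANK proteins are large multidomain scaffolds, and mutations of all 3 human genes are linked to neurodevelopmental disorders. Shank1 (chromosome 7, 44308916 to 44360094, plus strand) was 98.995 RPKM in control and 100.5 in CUMS, with a log2 ratio of 0.02 (-0.02 to 0.06). Shank2 (chromosome 7, 143978077 to 144426043, plus strand) was 37.3 RPKM in control and 35.6 in CUMS, a log2 ratio of -0.07 (-0.14 to 0.004). Shank3 (chromosome 15, 89493013 to 89560261, plus strand) was 53.6 RPKM in control and 51.9 in CUMS, a log2 ratio of -0.05 (-0.10 to 0.006). The intervals of Shank2 and Shank3 end just above 0, and their place relative to 0 depends on the scaling of the groups. With both groups set to an equal total, both intervals lay under 0. Shank1 was 52.1% of the summed Shank level in control and 53.5% in CUMS.

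The HOMER family held the 2 largest differences among the members. All 3 genes were lower in CUMS, and their sum was 34.3 RPKM in control and 30.1 in CUMS, a log2 ratio of the sums of -0.19. HOMER proteins bind SHANK proteins, group I metabotropic glutamate receptors and inositol trisphosphate receptors through an N-terminal EVH1 domain, and long forms join to each other through a C-terminal coiled coil. Homer1 (chromosome 13, 93303757 to 93405129, plus strand) was 19.6 RPKM in control and 17.0 in CUMS (1306 and 1143 estimated fragments over both libraries). It was 1.15-fold lower, with a log2 ratio of -0.20 (-0.32 to -0.09). Homer2 (chromosome 7, 81600481 to 81706925, minus strand) was 7.58 RPKM in control and 6.23 in CUMS (1229 and 1018 fragments). It was 1.22-fold lower, with a log2 ratio of -0.28 (-0.40 to -0.16). Homer3 (chromosome 8, 70282880 to 70294361, plus strand) was 7.12 RPKM in control and 6.90 in CUMS (257 and 251 fragments), a log2 ratio of -0.05 (-0.30 to 0.21). The wide interval of Homer3 holds the log2 ratios of both Homer1 and Homer2, so that at this depth a difference between Homer3 and its paralogs was not detectable. As a share of the family, Homer1 was 57.1% in control and 56.5% in CUMS, and Homer2 was 22.1% and 20.7%. In mRNA level at the deposited gene lengths, Shank1 was 5.05 times Homer1 in control and 5.91 times in CUMS. Dlg4 was 16.6 and 19.4 times Homer1.

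The differences of Homer1 and Homer2 were not rare in this table. Among the 14257 genes, 33.7% had a larger absolute log2 ratio than Homer1 and 22.6% had a larger one than Homer2. Among the 9397 genes with at least 5 RPKM these shares were 22.0% and 11.5%. In that set 8.14% of genes were lower by more than 1.2-fold and 5.49% were higher by more than 1.2-fold. Because the tissue was sequenced in bulk, fewer cells of a type and less RNA per cell cannot be told apart.

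**Figure D3:**
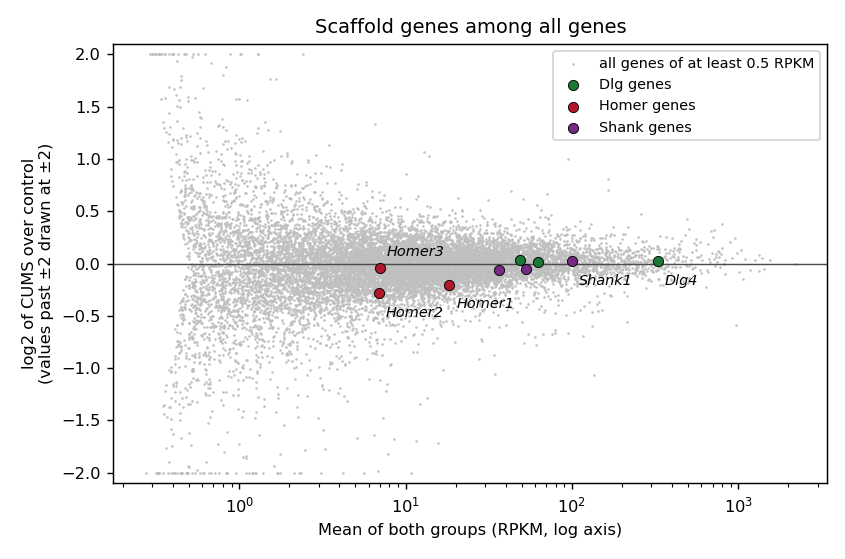
Log2 ratio of CUMS over control (vertical axis) against the mean of both groups (horizontal axis, RPKM, log axis) for all genes that reached 0.5 RPKM in either group (grey) and for the Dlg (green), Shank (purple) and Homer (red) genes. The members lie within the cloud of genes of like level, the Dlg and Shank genes close to 0 and Homer1 and Homer2 below it at -0.20 and -0.28.

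Homer1 makes products that act in opposite ways, and the deposited value does not separate them. Long forms carry the coiled coil and cross-link receptors to the scaffold. The short form Homer1a lacks it, is transcribed as an immediate early gene after neuronal activity, and loosens the cross-links. In the GENCODE M21 annotation the short transcript Homer1-204 codes for 186 residues and the long transcripts Homer1-201 and Homer1-203 for 354 and 366. They share the first 527 coding bases, up to chr13:93356079 on GRCm38. The short transcript then reads on from position 93356080, and the long ones continue in exons at 93387524 (Homer1-201) and 93386345 (Homer1-203). The 60 coding bases around this split are shown because they are what tells the forms apart. Lower case marks the last 30 shared bases, and capitals mark the first 30 bases of each form.
Homer1-204: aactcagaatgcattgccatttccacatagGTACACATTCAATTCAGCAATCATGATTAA
Homer1-201: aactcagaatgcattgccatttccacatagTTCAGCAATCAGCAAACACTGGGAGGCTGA
Homer1-203: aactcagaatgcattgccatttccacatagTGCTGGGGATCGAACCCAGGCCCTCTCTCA
The short transcript is also the longest of the gene, with 5713 bases, and the deposited length of Homer1 was 4512.9 bases. Immediate early genes were lower in CUMS as a list. Of 12 such genes 12 were lower by more than 1.2-fold, with a median log2 ratio of -0.74 (for example Arc, 184.1 to 88.0 RPKM), and their summed level was 736.1 RPKM in control and 464.5 in CUMS. The list was not chosen independently of these libraries. How much of the difference of Homer1 lay in the short form was not tested.

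The Homer paralogs are distant enough in sequence for their reads to be told apart. Over the aligned coding sequences of the long forms, 60.8% of bases were identical between Homer1 and Homer2, 60.6% between Homer1 and Homer3 and 60.1% between Homer2 and Homer3. The longest identical runs were 17, 11 and 15 bases. No stretch of 100 bases, about the length of a read, was shared between any of the 9 members.

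Promoter sequences from RefSeq (GRCm38.p6, from 250 bases before to 50 after a transcription start) were matched by gene identifier for 7 of the 9 members, with 14 starts in all. Shank1 and Shank2 have no entry in the table used. The promoters at the gene starts of Homer1 (chr13:93303507-93303806, plus strand) and Homer2 (chr7:81706876-81707175, minus strand) are shown because these are the members that differed beyond counting error. Capitals mark TGACG, the core of the cAMP response element bound by CREB, and the GC box GGGCGG, each on either strand (as CGTCA and CCGCCC), with overlapping matches counted singly.
Homer1: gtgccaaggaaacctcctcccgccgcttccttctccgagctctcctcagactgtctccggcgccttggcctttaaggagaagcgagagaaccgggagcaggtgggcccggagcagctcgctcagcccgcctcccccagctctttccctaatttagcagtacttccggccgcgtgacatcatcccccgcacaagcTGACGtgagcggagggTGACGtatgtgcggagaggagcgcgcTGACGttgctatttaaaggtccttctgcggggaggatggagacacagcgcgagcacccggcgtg
Homer2: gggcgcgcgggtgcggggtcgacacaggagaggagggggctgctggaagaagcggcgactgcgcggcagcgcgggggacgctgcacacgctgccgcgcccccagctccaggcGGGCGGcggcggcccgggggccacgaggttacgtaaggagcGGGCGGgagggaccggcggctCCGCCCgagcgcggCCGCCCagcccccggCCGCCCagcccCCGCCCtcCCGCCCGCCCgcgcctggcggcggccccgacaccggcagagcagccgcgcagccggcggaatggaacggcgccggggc
The promoters had little in common. That of Homer1 had a GC content of 63.0%, held 3 matches to TGACG and held no GC box. That of Homer2 had a GC content of 82.3%, held 8 GC boxes and held no TGACG. Among all 32851 promoters of the table the median GC content was 52.7%, and 20.8% held TGACG and 35.7% held GGGCGG at least once. Of the other starts, GC boxes were found at 1 start each of Homer3 (5 matches), Shank3 (4), Dlg4 (2) and Dlg3 (1), and TGACG at 1 start each of Dlg3 and Dlg4 (1 match each). TATAAA (13.6% of promoters) was found at 1 start each of Dlg2 and Homer2 (1 match each), and not in the Homer2 promoter shown. The full element TGACGTCA (1.8%), the E-box CACGTG (7.2%) and the AP-1 site TGACTCA (5.2%) were found at none of the 14 starts. TGACGTCA holds TGACG, and a match to any of these letters is a description of the sequence only.

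The levels rest on the gene lengths that were deposited with them, whereas the ratio between the groups does not. The deposited length of Dlg4 was 3338 bases and its longest coding transcript in GENCODE M21 has 6326 bases. With the longer length the control level of Dlg4 would be 171.5 RPKM in place of 325.1, which is still the highest of the 9 members, as the highest of the others at its longest length was Shank1 at 76.5 RPKM. For Homer2 the deposited length of 10978 bases matches the longest transcript (10982 bases), while the transcript Homer2-201 has 1736 bases. If all its reads had come from Homer2-201, the level would be 47.9 RPKM in control and 39.4 in CUMS, and Homer2 would lie above Homer1 and above Shank2 (37.3 RPKM in control at its deposited length). The place of Homer2 in the order of the 9 members therefore depends on which transcript was read.

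**Figure D4:**
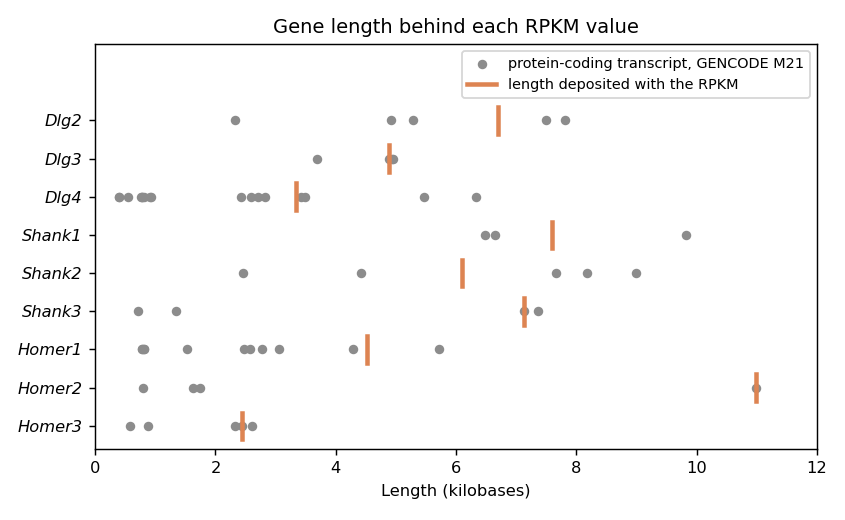
Length of each protein-coding transcript in GENCODE M21 (grey points, kilobases) and the length deposited with the RPKM values (orange bar) for the 9 scaffold genes. The deposited length of Homer2 lies at its longest transcript, far from its shorter ones, and that of Dlg4 lies near the middle of its range.

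Some members share exonic sequence with a neighbouring gene, and the use of strand in the counting was not stated. For Homer3, 25.4% of the exonic bases overlap Ddx49 on the opposite strand, a gene with 16.9 RPKM in control and 17.0 in CUMS, so that reads of both genes may have been given to each other or left out, and the value of Homer3 is uncertain. The overlaps were 4.16% for Homer2, 3.22% for Shank1, 2.95% for Shank3 and 1.38% for Dlg2, and no overlap was found for Dlg3, Dlg4, Shank2 and Homer1.

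The proteins that the scaffolds bind were described by lists. The counts below stand beside all 14257 genes, of which 14.6% were lower and 10.4% were higher by more than 1.2-fold. Among 24 DLG partners and further postsynaptic scaffolds, 11 were lower and 13 were higher, with a median log2 ratio of 0.04. None was lower by more than 1.2-fold and 2 were higher. Cnksr2, a scaffold of Ras signaling that binds PSD-95, was 18.1 RPKM in control and 25.7 in CUMS, a log2 ratio of 0.50 (0.41 to 0.60). Kalrn, a guanine nucleotide exchange factor that shapes dendritic spines, was 77.8 RPKM in control and 94.4 in CUMS, a log2 ratio of 0.28 (0.24 to 0.32). The lowest of this list was Lin7c, a small PDZ protein, at -0.23. With 24 genes, a count of 2 past the fold is near the share of 10.4% and is no result about the partners. The counting interval lay under 0 in 4 of the 24 and over 0 in 9. Among all 14257 genes these shares were 16.8% and 12.5%, and among those with at least 5 RPKM they were 19.3% and 15.9%. Intervals are narrower for genes with more fragments, and genes of like level were not compared apart.

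Among 12 partners of SHANK and HOMER proteins none passed 1.2-fold in either direction. Of these, 7 were lower and 5 were higher, with a median log2 ratio of -0.02. They ran from Dnm3, a dynamin that binds HOMER, at 17.6 RPKM in control and 15.2 in CUMS (-0.21, interval -0.31 to -0.12), to Trpc1, a cation channel gated with HOMER, at 8.80 and 10.2 RPKM (0.21, 0.01 to 0.41). Grm5, a metabotropic glutamate receptor that binds HOMER, belongs to this list, at 12.6 RPKM in control and 12.5 in CUMS (a log2 ratio of -0.01). Over the 12 genes of the list, the counting interval lay under 0 in 2 and over 0 in 4.

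Among 10 ionotropic glutamate receptor genes 7 were lower and 3 were higher (median -0.03), and 2 NMDA receptor subunits were lower by more than 1.2-fold. Grin2c was 16.8 RPKM in control and 13.3 in CUMS (-0.34, interval -0.46 to -0.21), and Grin2d was 6.61 and 4.85 RPKM (-0.45, -0.66 to -0.24). The highest ratio was that of Gria4 (0.11). The obligatory subunit Grin1 was 209.1 RPKM in control and 207.4 in CUMS. The main cortical subunits Grin2a and Grin2b were listed at only 1.04 and 0.56 RPKM in control, with 70 and 62 estimated fragments. Their deposited lengths were 4512 and 7515 bases, against 14634 and 24060 bases for their longest coding transcripts in GENCODE M21. Whether the low values come from the gene models used was not tested.

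Among 6 auxiliary subunits of AMPA receptors (TARPs) 3 were lower and 3 were higher. Cacng5 was 10.7 RPKM in control and 5.52 in CUMS, with a log2 ratio of -0.96 (-1.16 to -0.76), and was the only gene of the 7 synaptic lists past 1.5-fold. The highest TARP was Cacng3 (0.19), and the median was 0.005, or -0.002 with both groups set to an equal total. Among 9 CaMKII and spine actin genes 4 were lower and 5 were higher (median 0.01). Akap5, an anchor of kinases at the postsynaptic density, was the only one past 1.2-fold, at 8.18 RPKM in control and 6.34 in CUMS (-0.37, -0.52 to -0.22), and the highest was Camk2a (0.21).

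Scaffolds outside the excitatory postsynaptic density served as a comparison. Among 6 genes of inhibitory postsynaptic sites 3 were lower and 3 were higher (median 0.01). Iqsec3 was past 1.2-fold, at 48.6 RPKM in control and 36.6 in CUMS (-0.41). Among 13 genes of the presynaptic active zone 5 were lower and 8 were higher (median 0.02). Ppfia4 was lower, at 20.7 and 15.5 RPKM (-0.42), and Unc13b was higher, at 6.16 and 7.40 RPKM (0.26). The medians of all 7 synaptic lists lay between -0.03 and 0.04.

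**Figure D5:**
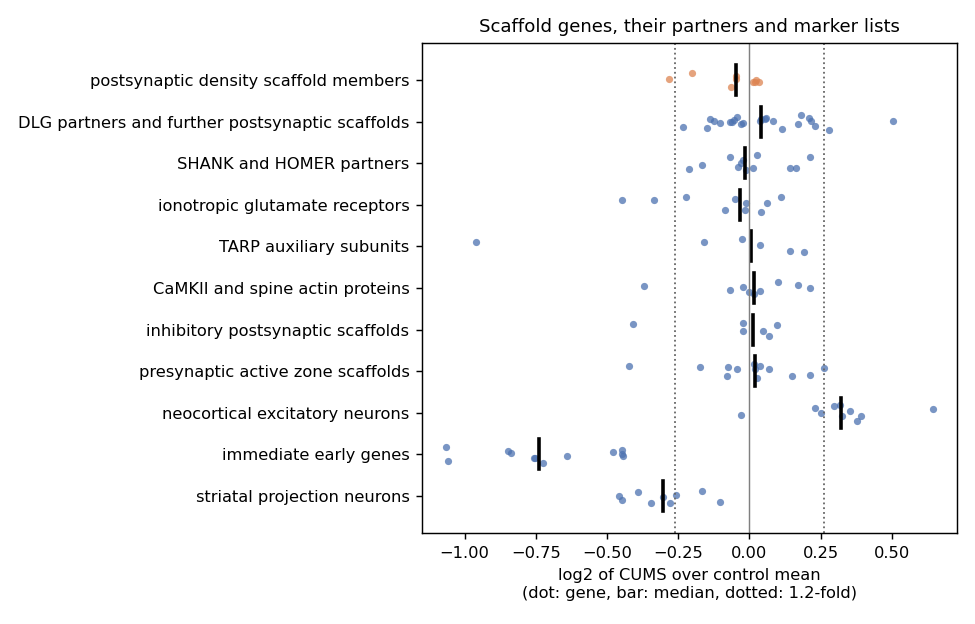
Log2 ratio of CUMS over control (horizontal axis) for each gene (dot) of the scaffold members (orange), 7 lists of synaptic genes and 3 marker lists (blue), with the list's median (black bar) and 1.2-fold (dotted lines). The medians of the synaptic lists lie near 0, those of neocortical excitatory neurons at 0.32, of immediate early genes at -0.74 and of striatal neurons at -0.30.

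The tissue label was checked with cell type markers, and the groups differed in them. All 10 markers of neocortical excitatory neurons were detected, 9 were higher in CUMS and 7 were higher by more than 1.2-fold (median log2 ratio 0.32, summed level 1464 RPKM in control and 1860 in CUMS). Of 9 genes of striatal projection neurons 9 were lower and 6 were lower by more than 1.2-fold (summed level 606.9 and 496.3 RPKM). Of 8 olfactory bulb genes 8 were lower by more than 1.2-fold (83.7 and 43.0 RPKM), and S100a5 was listed at 0 in CUMS. Of 8 septal and hypothalamic genes with at least 0.5 RPKM 7 were lower by more than 1.2-fold and 1 was higher by more than 1.2-fold. The summed level of these 8 was 229.8 and 167.8 RPKM, with 190.8 RPKM in control from a single gene. Of 9 myelin genes 8 were lower by more than 1.2-fold (1958 and 1338 RPKM). Of 7 astrocyte genes 3 were lower and 4 were higher (966.2 and 915.8 RPKM). Apart from S100a5 no marker of these lists with a row in the table was listed at 0. The part of these marker differences in the differences of Homer1, Homer2 and the partners was not tested.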

How the data were processed

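mRNA of the mPFC was sequenced in 2 control and 2 CUMS libraries, grouped by their labels. Per the methods and processing notes of the study, the authors trimmed reads with SolexaQA, aligned them to mm10 with TopHat 1.0.12 and Bowtie 0.11.3, and counted uniquely aligned reads. The gene annotation and whether strand was used are not given in the sources used here. The deposited table held RPKM values that the authors had averaged over each group, with gene length. Its other columns (the authors' log2 ratio, direction and NOISeq probability) were not used. A mean listed at 0.01 stood for 0.

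Fragment numbers were estimated from the steps of mean times length in genes under 1000 bases (67.7 in control and 67.2 in CUMS; 86.5% and 86.2% of products lay within 0.15 of a whole step, against 29.6% and 28.6% with shuffled lengths). They assume equal depth within a group. Ratios were computed without a pseudocount, for genes that reached 0.5 RPKM in either group. The planned limma test needs a value per library and was not run. All 9 members were named, with each partner gene past 1.2-fold and the extremes of each list, apart from items that are not reported here. Dlg1, Grm5, Grin1, Grin2a, Grin2b, Arc, S100a5 and Ddx49 were named outside that rule, after their values were seen. The members and lists were chosen with earlier results of these data known. Python 3.11.15, NumPy 2.4.6, pandas 2.3.3, SciPy 1.17.1 and Biopython 1.88 were used. Spans are from RefSeq (GRCm38.p6) and transcripts from GENCODE M21.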

Additional observations from a re-analysis of the deposited data

How the results depend on the processing

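The count of members past 1.2-fold was 1 (Homer2). It was 0 with a pseudocount of 1 RPKM, 2 at a fold of 1.1 (with Homer1) and 0 at a fold of 1.5. It was 1 under both rescalings of CUMS, with a pseudocount of 0.5 RPKM, with a minimum of 5 RPKM and without a minimum. The count of members outside counting error was 2 (Homer1 and Homer2). It was 4 with an equal total and 4 with 2 times the estimated depth, with Shank2 and Shank3 lower in addition. With CUMS rescaled to a median log2 ratio of 0 it was 3, with Dlg4 higher. It was 2 with 0.5 times the depth and with 99% intervals. The median log2 ratio of the members ran from -0.05 to -0.03 over these settings. All 36 log2 ratios of single members under other scalings and pseudocounts kept their sign and lay inside the counting interval. A pseudocount added to both means cannot change the sign of a ratio, and the rescalings removed shifts of only -0.015 and 0.008. This count therefore says little about how firm the ratios are. The background among genes with at least 5 RPKM and the medians of the lists under both rescalings were chosen after seeing the data. With the longest transcript as gene length, the control levels of Dlg2, Dlg4, Shank1, Shank2, Shank3 and Homer1 were lower by more than the counting error. No paired analysis was possible because only group means were deposited. Leaving out a library, limma and a fit with the replicate block were not run for the same reason. The depth is an estimate, and the fragment numbers limit Homer3 most, with 257 and 251 fragments.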
